A study of Mus musculus with 16 samples.

Results

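Transcripts of 3 immunoglobulin chain genes were measured in mouse lungs from a study of experimental asthma: Igha, the heavy chain of IgA, Ighm, the heavy chain of IgM, and Jchain, the joining chain. They were chosen by gene symbol (the array's annotation calls Jchain Igj) and are 3 of the 9866 genes that could be named on the arrays, with 10 probe sets between them. The 16 Affymetrix arrays formed 4 groups of 4, made of mice titled BALB/c or BALB-RAG that had been given ovalbumin (OVA), the egg protein used here as allergen, or phosphate-buffered saline (PBS) as the control. Lungs came from day 22, 1 day past the final exposure. BALB/c is an inbred mouse strain. The labels used here name no Rag gene or allele, no age and no sex for BALB-RAG, and do not say which strain the line was bred on or whether a replicate was a single animal.

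An antibody heavy chain gene has to be cut and rejoined by the RAG recombinase before a B cell can use it, so mice without a working Rag gene make no mature B or T cells. A B cell starts with the IgM heavy chain and can later switch to another constant region, such as that of IgA. Plasma cells, the antibody-secreting form of the B cell, also make the joining chain, a small protein that links IgM into large polymers and IgA into dimers and lets both be carried across an epithelium, which is how IgA reaches the airway surface.

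The RefSeq promoter table (build GRCm38.p6) holds 1 of the 3 members, Jchain. Its 250 bases before the gene start, at chr5:88527898-88528147 on the minus strand, are shown because Jchain had the widest range of the 3 members; capitals mark the E-box letters CANNTG, a motif searched on both strands.
Jchain promoter: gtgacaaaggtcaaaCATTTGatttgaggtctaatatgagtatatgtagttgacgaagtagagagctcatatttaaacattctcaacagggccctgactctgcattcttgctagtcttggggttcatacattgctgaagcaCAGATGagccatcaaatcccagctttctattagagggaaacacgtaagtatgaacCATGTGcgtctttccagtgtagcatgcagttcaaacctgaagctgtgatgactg
CANNTG occurs 3 times, starting 235, 109 and 54 bases before the gene start, and 66.2% of 32851 promoter windows of this length hold at least 1 such match. The octamer ATGCAAAT (1.60% of windows), the palindromic E-box CACGTG, a special case of CANNTG (6.02%), the PU box GAGGAA (23.3%) and the unfolded protein response element TGACGTGG (0.563%) had 0 matches on either strand of this window. These matches describe the letters alone.

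Median intensity lay between 18.2 and 20.5 on the 16 arrays, and 4 arrays per group limit the precision. Values are log2 of the deposited intensity, and log2 4 was taken as the background level. The mean of 7 lung epithelium genes, among them the surfactant protein gene Sftpc, was at least 11.4 on every array. Lymphocyte transcripts went against the label on part of the arrays labelled BALB-RAG. Rag2 lay near background in every group (3.05 on average in BALB/c after PBS), so it checked nothing. Without allergen the mean of 14 T cell genes was 4.30 to 4.63 on the arrays labelled BALB-RAG and 4.27 to 4.61 in BALB/c. These means lie near background, so they do not show that the lines were alike. The B cell gene Ms4a1 (CD20) was 4.36 to 6.17 on the BALB-RAG arrays, above background but lower than the 6.87 to 7.48 of BALB/c. With allergen the T cell mean was 5.05 on BALB-RAG replicate 2 and 3.49, 3.68 and 3.56 on replicates 1, 3 and 4, and Ms4a1 was 6.09 on replicate 2 and 2.05 to 2.94 on the others. Groups were kept as titled, and results are given with and without BALB-RAG OVA replicate 2, which stood apart in all 3 members as well.

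Igha was high with allergen in BALB/c and without it in the line labelled BALB-RAG. In BALB/c it read 6.92, 7.86, 6.66 and 6.83 on replicates 1 to 4 after PBS (7.07 ± 0.54, SD, n = 4) and 11.47, 10.83, 10.45 and 10.78 after OVA (10.88 ± 0.42). On the arrays labelled BALB-RAG it read 10.79, 8.45, 9.04 and 10.72 after PBS (9.75 ± 1.19). After OVA it read 3.98, 10.97, 3.59 and 5.52 (6.01 ± 3.41). The BALB/c groups did not overlap, all 4 BALB-RAG PBS arrays lay above all 4 BALB/c PBS arrays, and BALB-RAG OVA spanned the range from under background to the level of BALB/c after OVA.

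Ighm ran the same way within BALB/c and lower on the arrays labelled BALB-RAG. It read 9.91, 10.15, 8.95 and 9.08 in BALB/c after PBS (9.52 ± 0.59, SD, n = 4) and 13.85, 12.85, 13.20 and 10.59 after OVA (12.62 ± 1.42). The arrays labelled BALB-RAG read 8.75, 7.25, 7.71 and 8.71 after PBS (8.11 ± 0.75) and 5.05, 9.58, 4.44 and 4.43 after OVA (5.87 ± 2.49). All 4 BALB-RAG PBS arrays lay below all 4 BALB/c PBS arrays, the opposite order to Igha. Replicate 4 was the lowest BALB/c array after OVA, and replicate 2 the highest BALB-RAG array after OVA.

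Jchain, which serves both antibody classes, had the widest range. It read 7.37, 7.70, 4.35 and 4.93 in BALB/c after PBS (6.09 ± 1.70, SD, n = 4) and 12.37, 11.99, 11.80 and 8.40 after OVA (11.14 ± 1.84). The arrays labelled BALB-RAG read 8.21, 5.88, 7.04 and 8.34 after PBS (7.37 ± 1.15) and 1.73, 10.52, 2.49 and 1.99 after OVA (4.18 ± 4.24). On 3 BALB-RAG arrays after OVA Jchain was thus under background, while replicate 2 lay inside the range of BALB/c after OVA. In BALB/c after PBS replicates 1 and 2 read higher than replicates 3 and 4.

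**Figure D1:**
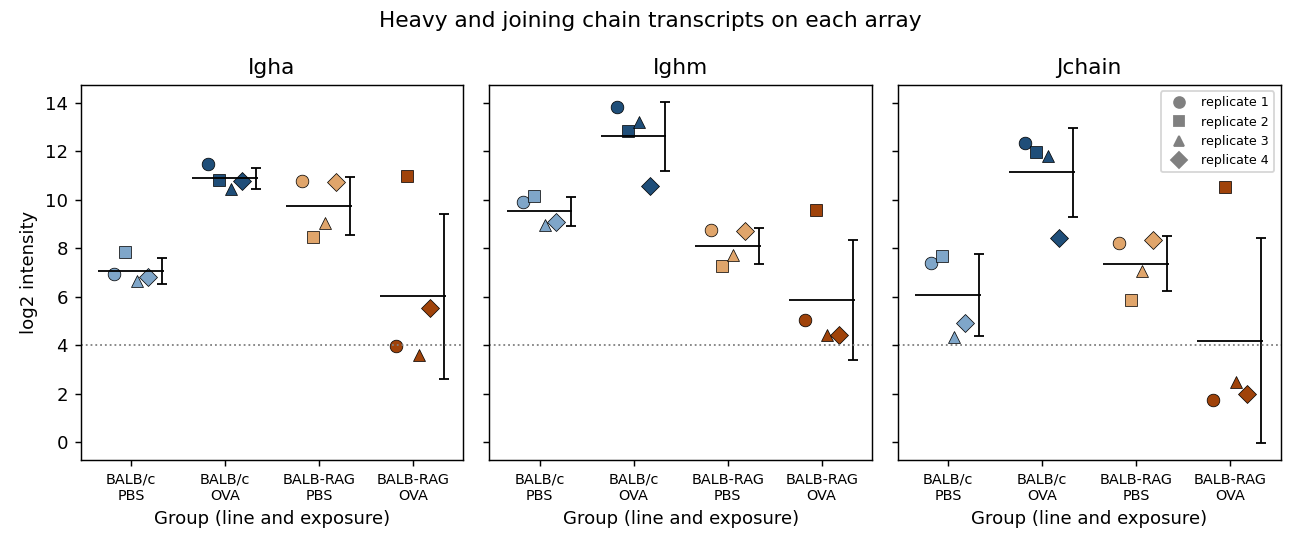
Log2 intensity (vertical axis) of Igha, Ighm and Jchain on each array by group (horizontal axis); symbols are replicates, lines are means, bars are SD (n = 4) and the dotted line is log2 4. BALB-RAG OVA replicate 2 reads 10.97, 9.58 and 10.52 in the 3 panels, above the other BALB-RAG OVA arrays.

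Ranked by mean, Igha was highest in BALB/c after OVA, then BALB-RAG after PBS, BALB/c after PBS and BALB-RAG after OVA. Neighbours in that order overlapped except for BALB-RAG PBS and BALB/c PBS. Ighm was highest in BALB/c after OVA, then BALB/c after PBS, BALB-RAG after PBS and BALB-RAG after OVA, and its first 3 groups did not overlap. Jchain had the order of Igha, with no overlap between BALB/c OVA and BALB-RAG PBS and overlap between the other neighbours. In exact two-sided permutation tests of the 18 pairs of groups over the 3 genes, the smallest p that 4 against 4 arrays allows is 0.0286, and 0 pairs passed after adjustment over the 18 (lowest adjusted p = 0.0643). Non-overlapping pairs all had the smallest p possible.

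The first comparison set allergen against control in BALB/c. All 3 chains rose. Jchain rose 33.2-fold, a log2 difference of 5.05 ± 1.58 (standard error of the limma fit; adjusted p = 0.0405; 4 arrays a side, as in all comparisons). Igha rose 14.1-fold (3.82 ± 1.15, adjusted p = 0.0341) and Ighm 8.58-fold (3.10 ± 0.95, adjusted p = 0.0362). All 4 OVA arrays were above all 4 PBS arrays for each. Of 7276 tested genes, 15.5% were called, 8.73% as higher and 6.78% as lower, and 10.4% had their OVA arrays wholly above their PBS arrays. Ranked by p, the members stood at 966 (Igha), 993 (Ighm) and 1040 (Jchain). In bulk lung, more cells of a type and more RNA per cell cannot be told apart.

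How firmly these rises were called turned on the spread that all 4 groups share. Without BALB-RAG OVA replicate 2, which enters only that spread here, the adjusted p was 0.000206 for Igha, 0.00174 for Ighm and 0.00141 for Jchain (15.7% of genes called). With the 2 BALB/c groups alone it was 0.000221, 0.0133 and 0.0127. Of the 16 fits that each leave out 1 array, Igha was not called in 7, and Ighm and Jchain in 6 each. For all 3 the call was lost without PBS replicate 1, 3 or 4 or OVA replicate 1, 2 or 3, and for Igha without OVA replicate 4 too; the highest adjusted p was 0.0850 for Igha, 0.111 for Ighm and 0.115 for Jchain, with differences of at least 3.62, 2.69 and 4.47. Within replicates 1 and 2 the rises were 3.76, 3.33 and 4.64 for Igha, Ighm and Jchain, and within replicates 3 and 4 they were 3.87, 2.87 and 5.46.

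The same comparison in the line labelled BALB-RAG gave differences below 0: −3.74 ± 1.15 for Igha (adjusted p = 0.309), −2.23 ± 0.95 for Ighm (0.568) and −3.19 ± 1.58 for Jchain (0.662; −1.74 with values under background set to log2 4). None of the 3 was called, in a comparison where 0.165% of genes were. Without replicate 2 after OVA all 3 were called lower: Igha by −5.39 ± 0.57 (adjusted p = 0.000709), Ighm by −3.47 ± 0.61 (0.0177) and Jchain by −5.30 ± 0.97 (0.0236), where 0.577% of genes were called and 0.316% called lower. The 3 remaining OVA arrays were then all under background for Jchain, which was at least 10.3-fold lower than on the PBS arrays. That array was left out after its values were seen. Within replicates 1 and 2 the differences were −2.14, −0.69 and −0.92, and within replicates 3 and 4 they were −5.33, −3.78 and −5.45.

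The difference of these responses was tested directly. OVA minus PBS was larger in BALB/c by 7.55 ± 1.63 for Igha (adjusted p = 0.00878), 5.33 ± 1.34 for Ighm (0.0218) and 8.24 ± 2.23 for Jchain (0.0323; 6.79 with values under background set to log2 4), where 8.49% of genes were called, 4.63% as higher. Without BALB-RAG OVA replicate 2 it was 9.20 (adjusted p = 6.4e-06) for Igha and 6.57 (0.000197) for Ighm, with 7.92% of genes called. Jchain, under background on the 3 remaining BALB-RAG OVA arrays, was called too (0.000207), with a difference of at least 8.42. Each of these differences held a rise in BALB/c and a lower mean on the arrays labelled BALB-RAG, whose PBS arrays carried the transcripts. The call for Ighm was lost without BALB/c OVA replicate 1 (adjusted p = 0.0522). That for Jchain was lost in 9 of 16 fits: without BALB/c PBS replicate 3 or 4, BALB/c OVA replicate 1 or 2, BALB-RAG PBS replicate 1 or 4, or BALB-RAG OVA replicate 1, 3 or 4 (highest adjusted p = 0.0700).

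**Figure D2:**
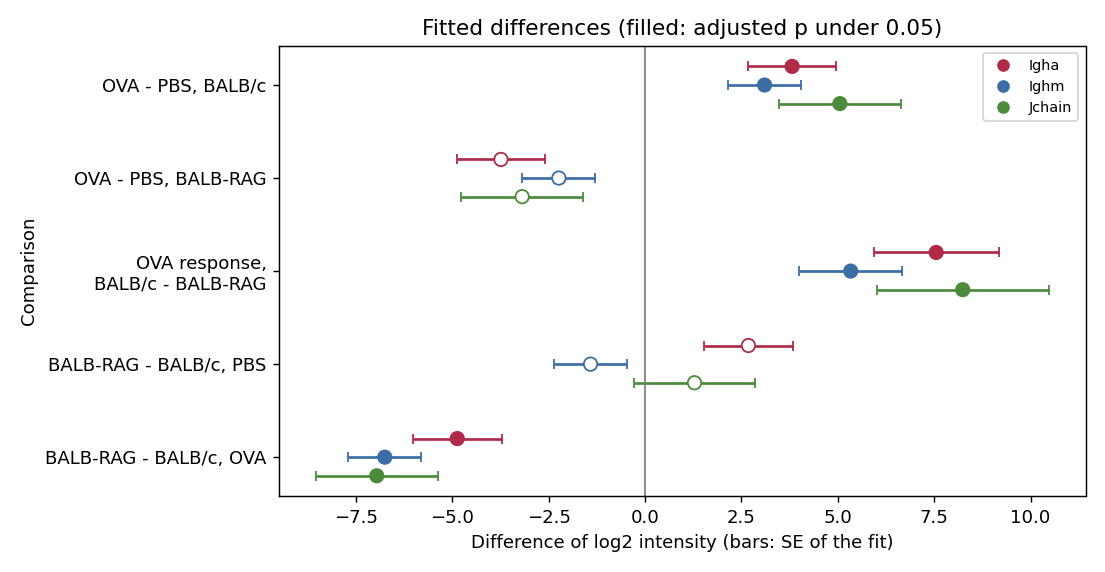
Fitted differences of log2 intensity with their SE (horizontal axis) for the 3 genes in the 5 comparisons (vertical axis); filled points had an adjusted p under 0.05. The members lie above 0 for OVA against PBS in BALB/c (3.10 to 5.05) and below 0 for the lines after OVA (−4.87 to −6.96). Jchain was under background on 3 of the 4 BALB-RAG OVA arrays, so the sizes of its differences with that group are imprecise.

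The lines were then compared without allergen, as BALB-RAG minus BALB/c. The difference was 2.68 ± 1.15 for Igha (adjusted p = 0.255), −1.41 ± 0.95 for Ighm (0.539) and 1.28 ± 1.58 for Jchain (0.800). None of the 3 was called, where 3.9% of genes were, 1.97% as higher and 1.94% as lower. Igha was 1 of the 4.21% of genes whose BALB-RAG arrays lay wholly above the BALB/c arrays, and Ighm 1 of the 5.44% whose arrays lay wholly below. Igha was called without BALB-RAG OVA replicate 2 (adjusted p = 0.0108, with 4.25% of genes called) and in the fit of these 2 groups alone (0.0401). For Jchain the difference was −0.49 within replicates 1 and 2 and 3.06 within replicates 3 and 4, so its direction turned; Igha gave 2.23 and 3.13 and Ighm −2.02 and −0.80.

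Heart muscle and fat markers moved with the line on the same arrays. The mean of the 6 tested heart muscle genes of the list (10 in all) was 11.08, 9.44, 8.23 and 11.04 on BALB-RAG PBS replicates 1 to 4, while the BALB/c PBS arrays read 7.69 to 8.31, and 2 of 6 were called higher. Replicates 1 and 4 were also those with the highest Igha. Of the 4 tested adipose genes of 11, 3 were called higher (Adipoq, Fabp4 and Cidea), and the list mean was 6.91 to 10.2 against 5.78 to 7.65. Of all genes 1.97% were called higher. On replicate 3 the heart muscle mean of 8.23 lay within the BALB/c range and Igha read 9.04. After OVA the heart muscle mean was 10.3, 10.2, 8.54 and 10.2 on BALB-RAG replicates 1 to 4, and Igha was high on replicate 2 alone. The part of these tissues in the Igha level was not tested.

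With allergen all 3 chains were lower in the line labelled BALB-RAG. Differences were −6.75 ± 0.95 for Ighm (adjusted p = 0.0001), −4.87 ± 1.15 for Igha (0.00555) and −6.96 ± 1.58 for Jchain (0.00431). Jchain was under background on 3 of the 4 BALB-RAG OVA arrays and Igha on 2. The sizes of these differences, Jchain's above all, are thus imprecise and give no order among the chains. Of all genes 23.8% were called, 11.6% as higher and 12.1% as lower. Only Ighm had groups that did not overlap, as did 13.6% of genes in that direction; for Igha and Jchain replicate 2 lay within the range of BALB/c. Without it the differences were −6.52, −7.98 and −9.07 for Igha, Ighm and Jchain (adjusted p of at most 1.47e-05, with 21.6% of genes called), and Jchain was at least 141-fold lower. The calls held in all 16 fits that left out 1 array.

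Each array's log2 Igha minus log2 Ighm gives the change in balance of the heavy chains without setting a probe set's level against another's, since only differences between groups are read. It was −2.98, −2.29, −2.29 and −2.25 in BALB/c after PBS (−2.45 ± 0.35, SD, n = 4) and 2.04, 1.20, 1.33 and 2.00 on the PBS arrays labelled BALB-RAG (1.64 ± 0.44). The balance thus lay 4.10 higher towards Igha in BALB-RAG after PBS, with no overlap (exact two-sided permutation test, p = 0.0286, the smallest possible; adjusted p = 0.114 over 12 such tests). Leaving out single arrays gave 3.92 to 4.24. In BALB/c the shift with OVA was 0.72, within the spread of arrays (exact permutation p = 0.400, adjusted 0.468), and replicate 4 after OVA stood at 0.20 against −2.74 to −2.02 on the others; without that array the shift was 0.071.

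Log2 Ighm minus log2 Jchain was 2.53, 2.45, 4.60 and 4.16 on the BALB/c PBS arrays and 1.49, 0.86, 1.40 and 2.18 after OVA, a difference of −1.95 with no overlap (exact permutation p = 0.0286, adjusted 0.114). On the PBS arrays labelled BALB-RAG it was 0.55, 1.37, 0.67 and 0.37, a difference of −2.70 from BALB/c after PBS (the same p and adjusted p). With 1427351_s_at, the other Ighm probe set above background on every PBS array, these differences were −1.31 and −2.38. Igha minus Jchain gave a difference of 1.40 between the lines after PBS (exact permutation p = 0.0571, adjusted 0.171) and of 0.92 without BALB/c PBS replicate 1, the lowest of 0.92 to 1.84 when single arrays were left out. None of the 12 tests passed after adjustment.

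**Figure D3:**
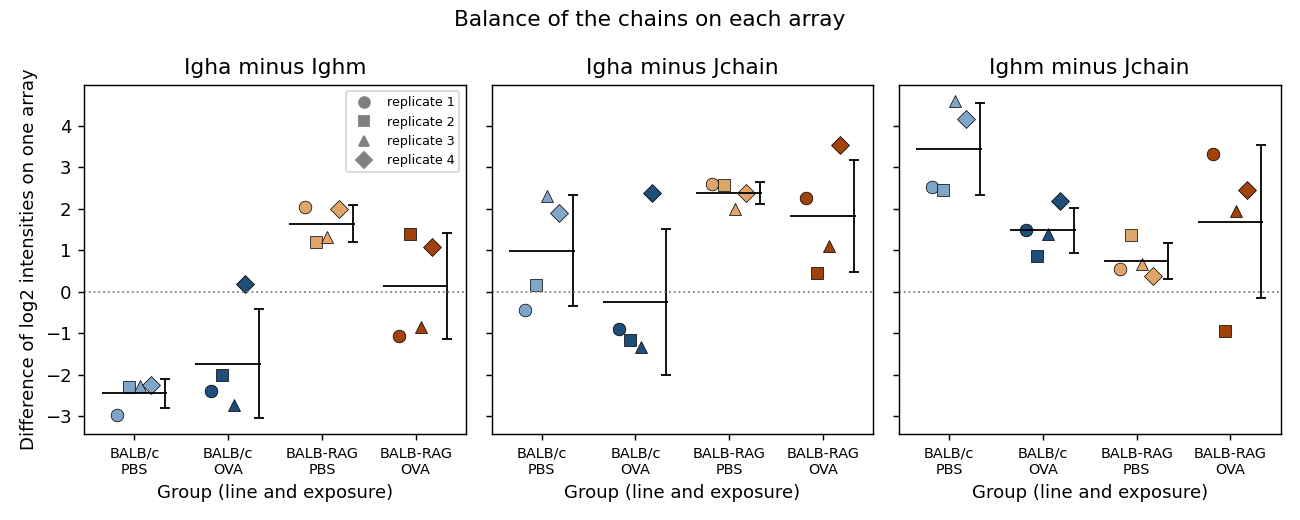
Difference of the log2 intensities of each pair of chains on each array (vertical axis) by group (horizontal axis); lines are means and bars SD (n = 4). Igha minus Ighm is between 1.20 and 2.04 on the 4 BALB-RAG PBS arrays and between −2.98 and −2.25 on the 4 BALB/c PBS arrays.

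The members were read by 2 probe sets for Igha, 7 for Ighm and 1 for Jchain, of which 9 passed the filter of log2 over 4 on at least 4 arrays. A further 5 lay outside the realigned labels and were not used. Both Igha probe sets ran together, the second (1425763_x_at) with 6.54 to 7.63 in BALB/c after PBS and 10.3 to 11.2 after OVA. Among 25202 tested rows, the second rose by 3.53 ± 1.23 with OVA in BALB/c (adjusted p = 0.0810), which missed the threshold, against 3.82 ± 1.14 (0.0419) for 1421653_a_at, the one used.

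The Ighm probe sets differed from each other. 1427329_a_at, used for the gene, and 1427351_s_at ran together; the latter read 10.13, 10.51, 8.44 and 7.95 in BALB/c after PBS and 13.78, 13.43 and 13.82 on replicates 1 to 3 after OVA and 11 on replicate 4, and its rise of 3.75 ± 1.32 missed the threshold over all rows (adjusted p = 0.0839). By contrast 1425247_a_at was under background on all 4 BALB/c PBS arrays (3.02 to 3.56) and all 4 BALB-RAG PBS arrays (2.89 to 3.95). It read 11.03, 12.61, 6.91 and 5.82 in BALB/c after OVA, at least 34.1-fold higher. Outside that group it was above background on 1 array, so it passed the filter through the group where it was high and its difference is given as a description.

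On the OVA arrays labelled BALB-RAG 1425247_a_at read 12.24 on replicate 2, within the BALB/c OVA range, and 3.80, 3.85 and 2.99 on replicates 1, 3 and 4. 1425324_x_at and 1427756_x_at had the same shape, with 11.52 and 10.79 on that array, and were not called in BALB/c (adjusted p = 0.0920 and 0.0961); 1427756_x_at, like 1425247_a_at, passed the filter only through the BALB/c OVA arrays. 1425385_a_at was intermediate, with 8.14 on it and 5.01 to 8.33 in BALB/c after OVA. On the PBS arrays the means of 1425247_a_at, 1425324_x_at and 1427756_x_at were under background in both lines (3.28 to 3.87), so they give no check of the balance between the chains there. 1425385_a_at read 3.21 to 5.80 on those arrays, and with it the difference between the lines in Igha minus Ighm was 1.99. The seventh Ighm probe set, 1426196_at, did not exceed log2 3.27 on any array.

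**Figure D4:**
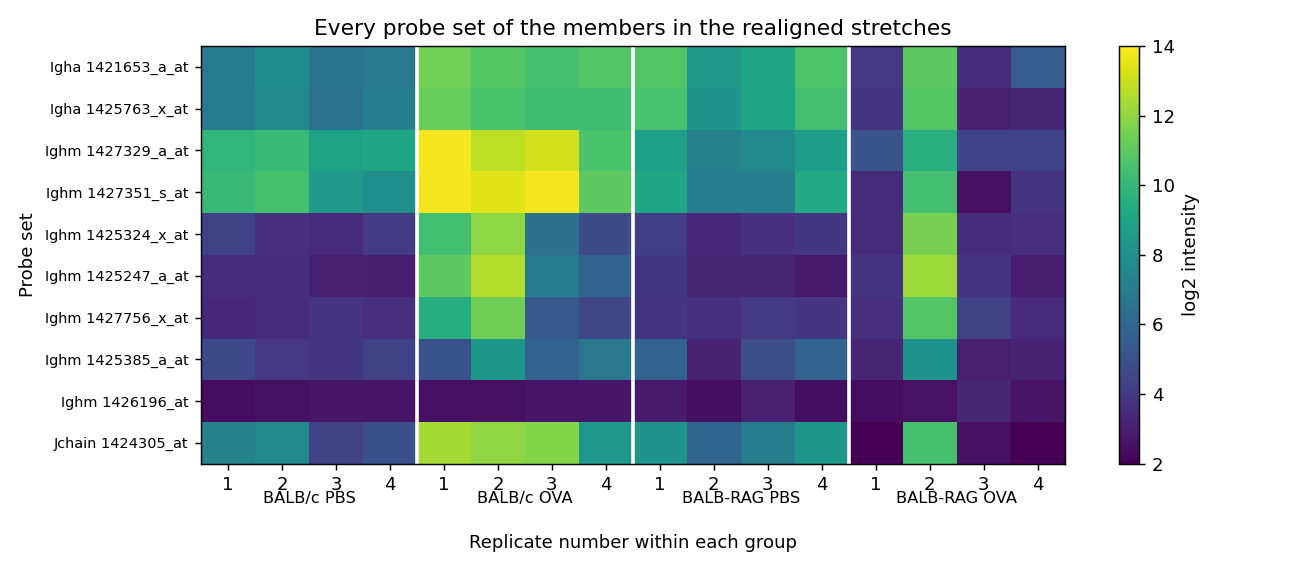
Log2 intensity (colour) of the 10 probe sets of the members (vertical axis) on the 16 arrays (horizontal axis, replicate number within each group). 1425247_a_at, 1425324_x_at and 1427756_x_at are bright on BALB/c OVA replicates 1 and 2 and on BALB-RAG OVA replicate 2, where they read 12.24, 11.52 and 10.79.

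Light chain and IgG probe sets were chosen by their symbols after the data were seen: 20 lay in the realigned labels and 9 passed the filter. With OVA in BALB/c 4 of 9 were called higher, where 5.76% of the 25202 rows were, and 3 of these 4 (1426201_at, 1427577_x_at and 1427837_at) would not have passed without the BALB/c OVA arrays, where they were high. The fourth was 1424931_s_at. This probe set, annotated to several light chain genes and so left unnamed, rose by 4.01 ± 0.72 (adjusted p = 0.00185). It read 5.30, 6.55, 3.86 and 4.73 in BALB/c after PBS and 10.92, 9.43, 8.73 and 7.39 after OVA. On the arrays labelled BALB-RAG it read 3.499 to 4.50 after PBS, and 5.37 on replicate 2 after OVA.

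Another probe set of several light chain genes, 1427660_x_at, read 10.57 to 11.24 in BALB/c after PBS and 9.61 to 11.18 on the PBS arrays labelled BALB-RAG. After OVA it read 11.47 to 13.09 in BALB/c. On the arrays labelled BALB-RAG it read 12.19 on replicate 2 and 2.07 to 3.27 on the others after OVA. Igk, the kappa light chain (1425738_at), read 9.05, 9.50, 8.03 and 4.25 in BALB/c after OVA and 2.77 to 4.57 after PBS. It read 9.29 on BALB-RAG OVA replicate 2 and 2.12 to 2.36 on the others of that group. For the lines after OVA 6 of 9 were lower and 0 higher, where 9.05% of the 25202 rows were lower. Among these 6, 1426201_at, 1427577_x_at and 1427837_at passed the filter only through the BALB/c OVA arrays. That group is the high side of this comparison, so their calls are a description only. In the comparison of lines after PBS 0 of 9 were called, against 3.1% of these rows, and 1427660_x_at differed by −0.31 ± 1.54.

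Genes whose pattern was most like each member over the 16 arrays were taken by Pearson correlation, a description in which all genes share arrays and groups. Jchain (r = 0.907) was most like Igha, followed by T cell genes: the transcription factors Bcl11b (0.896) and Satb1 (0.876), the T cell receptor segment Trav9d-3 (0.869) and the receptor component Cd3d (0.864). For Ighm it was Pou2af1 (0.951), a B cell coactivator of immunoglobulin transcription, then Cd3d (0.940), the lymphotoxin gene Ltb (0.939), the interferon-inducible Ifi47 (0.932) and the T cell adhesion gene Cd2 (0.930). Jchain ran with Cd3e (0.931), Cd3d (0.922), Ighm (0.914), Igha (0.907) and the kappa gene Igk (0.894).

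The 99th percentile over 7275 other genes was 0.682, 0.828 and 0.757 for Igha, Ighm and Jchain. After group means were subtracted Ighm and Jchain gave r = 0.968, Igha and Jchain 0.868 and Igha and Cd3d 0.908. These values include BALB-RAG OVA replicate 2, which stood far above its group in all 4 genes, and r without it was not computed. Cd3d read 7.03 on BALB-RAG OVA replicate 2 and 2.32 to 2.50 on the other BALB-RAG OVA arrays. Igha and Ighm themselves had r = 0.771, and Ighm stood at rank 16 among the genes most like Igha.

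Genes of the plasma cell and antibody secretion list were measured beside the chains; 16 of its 28 were tested. With OVA in BALB/c 5 rose and 1 fell, with a median of 0.36 against 0.00 over all genes. Of all genes 8.73% rose and 6.78% fell. Irf4, a transcription factor of plasma cells and activated lymphocytes, is 1 of the 5. It read 3.85 to 4.02 on the PBS arrays and 5.98 to 6.48 after OVA. It passed the filter only through the BALB/c OVA arrays, so its difference of 2.29 ± 0.20 is given as a description. Edem1, which helps degrade misfolded secretory proteins, rose by 1.75 ± 0.35 and Txndc5, a disulfide isomerase, by 0.76 ± 0.17. Pdia4 and Glipr1 were the other 2 that rose, and Herpud1 fell by 0.44 on the log2 scale (SE 0.14). Xbp1 and Prdm1, the central transcription factors of plasma cells, gave 0.03 ± 0.17 and 0.34 ± 0.15 and were not called.

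In the same list Hspa5, the main chaperone of the endoplasmic reticulum, was called lower on the PBS arrays labelled BALB-RAG (−0.64 ± 0.15, adjusted p = 0.0210), 1 of 16. None of the 16 was called higher there, where 1.97% of all genes were higher and 1.94% lower. After OVA 9 of 16 were lower on the arrays labelled BALB-RAG, Pou2af1 by −4.63 ± 0.69, and 1, Herpud1, was higher. Of all genes 12.1% were lower and 11.6% higher. Irf4, among the 9, passed the filter only through the BALB/c OVA arrays, the high side here. Pou2af1 read 5.35 to 6.48 on the BALB-RAG PBS arrays, against 6.84 to 7.54 in BALB/c after PBS, and 7.36 on BALB-RAG OVA replicate 2 against 2.81 to 3.92 on the other OVA arrays of that line.

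In the B cell list 9 of 18 tested members rose with OVA in BALB/c and 0 fell, 13 without BALB-RAG OVA replicate 2, with a median of 1.21. Of all genes 8.73% rose and 6.78% fell, and 15.7% were called in either direction without that array. Ly86 rose by 2.18 ± 0.32, the inhibitory coreceptor Cd72 by 1.95 ± 0.35, the low-affinity IgE receptor Fcer2a by 1.89 ± 0.35 and the kinase Btk by 1.72 ± 0.23. Ms4a1, the CD20 gene (1.18 ± 0.65), and Ebf1 (0.03 ± 0.25) were not called, nor were Cd79a and Cd79b. Ms4a1 and Cd79b were among the 13. After PBS 1 of 18 was called between the lines, Tnfrsf13c, the receptor for the B cell survival factor BAFF (−1.32 ± 0.32, adjusted p = 0.0280), where 3.9% of all genes were. Without BALB-RAG OVA replicate 2, 3 were lower, where 4.25% of all genes were called. The B cell list mean was 5.003 to 5.39 on the BALB-RAG PBS arrays, below the 5.77 to 6.07 of BALB/c, while Igha read higher on those arrays. After OVA 15 of 18 were lower on the arrays labelled BALB-RAG, where 12.1% of all genes were. Of the 18, 1 passed the filter only through the BALB/c OVA arrays, the high side of this comparison.

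T cell genes rose as well. With OVA in BALB/c 9 of 14 tested members rose and 0 fell (median 1.26), where 8.73% of all genes rose and 6.78% fell. Of the 14, 3 passed the filter only through the BALB/c OVA arrays, as did 1.8% of all genes. Among these 3, 2 (Ctla4 and Icos) are in the 9 that rose. Between the lines after PBS 0 of 14 were called (median 0.02), where 3.9% of all genes were. The list means on the PBS arrays were 4.27 to 4.63, near background, so this count does not show that the lines were alike. After OVA 12 of 14 were lower on the arrays labelled BALB-RAG, where 12.1% of all genes were. Ctla4 and Icos are among the 12, and BALB/c OVA is the high side of this comparison too. Calls of genes that passed only through that group are a description only. The list means of B cells (5.82) and T cells (5.05) on BALB-RAG OVA replicate 2 stood above the other arrays of its group (4.51 to 4.61 and 3.49 to 3.68), while its macrophage mean of 9.46 lay below their 9.65 to 9.80. Of 6 NK cell genes 1, Klrg1, rose with OVA in BALB/c. After PBS 1 of them, Gzma, was called lower on the arrays labelled BALB-RAG, where 3.9% of all genes were called. After OVA 5 of the 6 (Klra8, Klrc1, Gzma, Gzmb and Klrg1) were lower there (median −2.42), where 12.1% of all genes were. Of the 6 NK cell genes, 1 passed the filter only through the BALB/c OVA arrays.

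**Figure D5:**
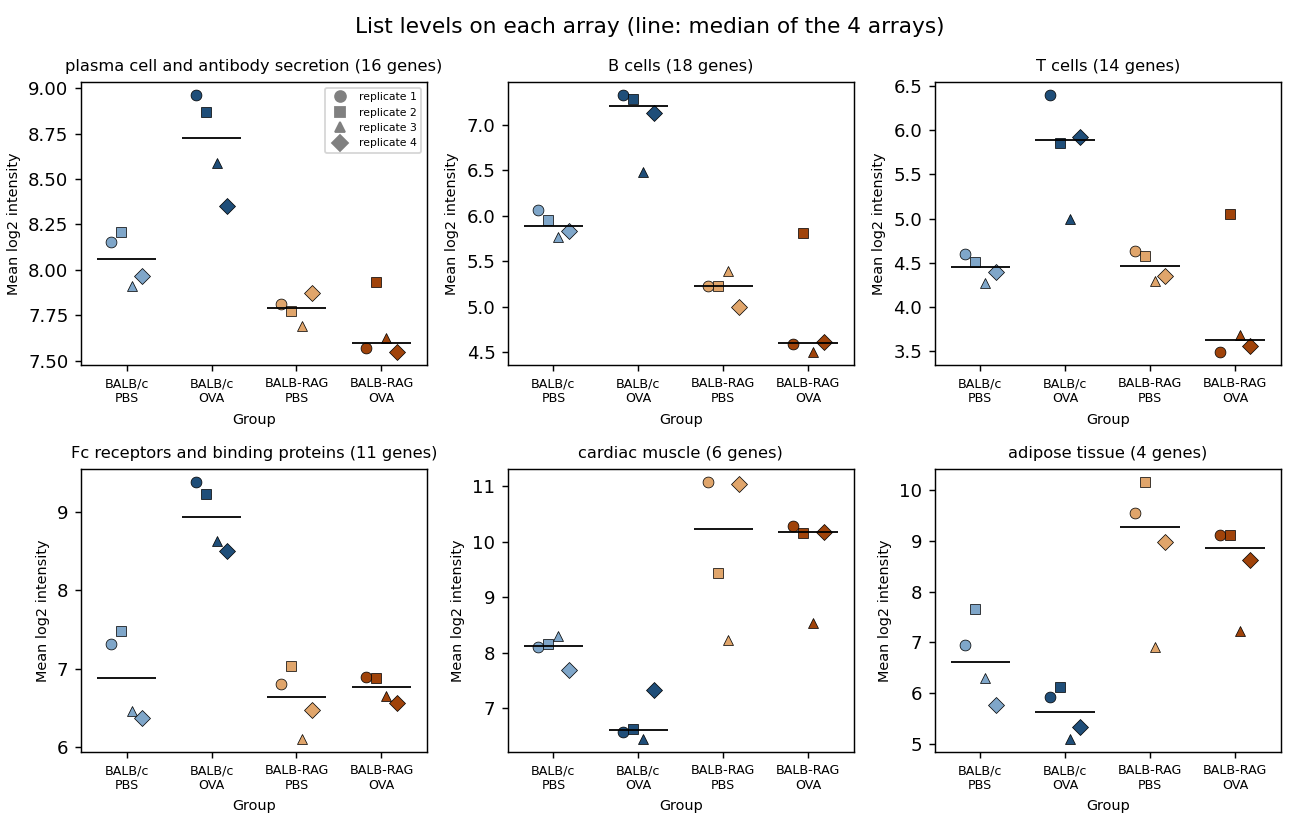
Mean log2 intensity of the tested genes of 6 lists (vertical axes, which differ between panels and do not start at 0) on each array by group (horizontal axis); symbols are replicates and lines are medians. BALB-RAG OVA replicate 2 reads 5.82 in the B cell panel and 5.05 in the T cell panel, above the other 3 arrays of its group, but not in the heart muscle panel (10.2).

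Of the class switch and germinal centre list 9 of 26 were tested. With OVA in BALB/c Tnfrsf13b, a receptor for the plasma cell factors BAFF and APRIL, rose by 1.42 ± 0.17 (adjusted p = 5.88e-05) from 4.24 to 4.55 after PBS to 5.70 to 6.10 after OVA. The T cell costimulator Icos read 4.03 to 5.48 on the 4 BALB/c OVA arrays and under background on the 12 others, at least 1.72-fold higher than after PBS; it passed the filter only through that group. Aldh1a1, a retinoic acid enzyme, fell by 0.81 on the log2 scale (SE 0.20). After PBS Nfil3, a transcription factor needed for switching to IgE, was lower on the arrays labelled BALB-RAG (−2.34 ± 0.35, adjusted p = 0.00152), 1 of 9, where 3.9% of all genes were called. It read 7.09 to 7.57 in BALB/c and 4.52 to 5.57 in BALB-RAG.

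In the list on transport and homing of IgA plasma cells 2 of 9 tested members rose with OVA in BALB/c and 0 fell. They were Itga4 (0.94 ± 0.22, adjusted p = 0.00835) and Itgb7 (0.97 ± 0.23), which encode the partners of the gut-homing integrin. The median over the list was 0.04, and of all genes 8.73% rose and 6.78% fell. After PBS Vcam1, the endothelial ligand of that family, was lower on the arrays labelled BALB-RAG (−0.68 ± 0.14, adjusted p = 0.0116), and neither integrin was called. Of all genes 3.9% were called there. Rag1 and Pigr, the receptor that carries polymers with a joining chain across epithelium, were not analysed here.

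Receptors and proteins that bind antibody rose with OVA in BALB/c in 7 of 11 tested members, and 0 fell (median 1.86). Of all genes 8.73% rose and 6.78% fell. Fcgbp, a mucus protein that binds IgG Fc, rose by 4.67 ± 0.17 (adjusted p = 3.92e-11), the complement component C1qb by 3.53 ± 0.38 and the inhibitory receptor Fcgr2b by 2.40 ± 0.29. Fcgrt, the neonatal Fc receptor, gave 0.09 ± 0.18. None of the 11 was called between the lines after PBS, where 3.9% of all genes were. On the OVA arrays labelled BALB-RAG 9 were lower, where 12.1% of all genes were. Macrophage and monocyte genes rose beside them in BALB/c, 4 of 5 (Itgax, Csf1r, Cd14 and Mpeg1). Their part in the rise of the Fc genes or of the B cell list was not tested.

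In the remaining lists, with OVA in BALB/c, 0 of 2 thymus genes and 0 of 2 further immunoglobulin genes (Ighg3 and Vpreb3) were called; of 7 lung epithelium genes Sftpd rose and Scgb3a2 fell, and 1 heart muscle gene (Myl4) and 1 adipose gene (Adipoq) fell. In BALB/c 15.5% of all genes were called. On the arrays labelled BALB-RAG 0 members of any of the 13 lists were called between OVA and PBS, where 0.165% of all genes were. Without replicate 2 after OVA, Pou2af1 and Itgb7 were called lower, as the 3 chains were, where 0.316% of all genes were. So were 3 of 18 B cell genes (Ms4a1, Cd79b and Ltb) and 3 of 14 T cell genes (Cd3d, Cd3e and Cd28). That array was left out after its lymphocyte and chain values were seen to be high. These calls are therefore no independent evidence of a fall.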

How the data were processed

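Whole lung RNA (6 µg per sample, per the labels' protocols) was hybridised to 1 Affymetrix array per sample. The authors deposited linear intensity values, made with GCRMA per the submitters' processing notes (version not given in the sources used here). GCRMA adjusts background and scales arrays to common quantiles, so low values gather near a floor and differences near log2 4 are imprecise. Log2 was taken of the deposited values, with no further scaling.

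Probe set labels in the deposited table are displaced against the values. Of 45101 labels, 14300 were realigned in 3 stretches, with values 64 rows above, 47 rows below and 16168 rows below the label. All 3 members lie in the second stretch. Its direction was chosen from 601 shifts by the likeness of probe sets of the same gene (r of their levels 0.562 at 47 rows below, 0.207 at 47 rows above and 0.249 as deposited), which uses no group difference. The direction given beforehand for this stretch was 47 rows above. Every gene name rests on the realignment. The platform annotation gave 13146 labels 1 symbol, 366 several and 788 none, and only the first were named.

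The filter was log2 over 4 on 4 or more arrays; the probe set with the highest mean stood for its gene, which left 7276 genes. limma 3.58.1 (R 4.3.3) fitted the 4 groups together, and p-values were adjusted across all genes (Benjamini-Hochberg, threshold 0.05); the code was tested on simulated data. Single values were tested by exact permutation (scipy 1.17.1). Probe set p-values come from a fit of 25202 rows. A fold against a group wholly under log2 4 sets that group to 4 and is given as "at least".

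Named genes are the members, the 5 genes most correlated with each, up to 4 per list with the smallest p in allergen against control in BALB/c and likewise in the lines after PBS, Rag1, Rag2, Pigr, and the genes behind any count of 5 or under. The members and the 13 lists (other immunoglobulins, plasma cells, B cells, class switch, transport and homing, Fc binding, T cells, NK cells, thymus, adipose tissue, heart muscle, macrophages, lung epithelium) were chosen with earlier results of these data known, so no list is independent evidence of its direction. Replicates are not stated to be separate animals; p-values then reflect only the spread among these arrays, part of which may be technical.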

Additional observations from a re-analysis of the deposited data

Results flagged for a closer look

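The difference of the OVA responses between the lines passed the limma test for each member: 7.55 log2 units for Igha, 5.33 for Ighm and 8.24 for Jchain (adjusted p = 0.00878, 0.0218 and 0.0323).

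A sample lay far from its group in 3 of the 12 groups of 4 arrays examined, where chance flags about 1 in 20. Ighm at 9.58 and Jchain at 10.52 stood above the rest on BALB-RAG OVA replicate 2, with gaps of 0.879 and 0.914 of the range of the group. Jchain at 8.40 stood below the rest on BALB/c OVA replicate 4, with a gap of 0.856 of the range.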

How the results depend on the processing

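Reading the probe set labels otherwise turned directions. With labels as deposited, OVA against PBS gave −0.33, −0.83 and −0.10 in BALB/c for Igha, Ighm and Jchain, and 0.20 and 0.56 in BALB-RAG for Igha and Ighm. The difference of the responses was −0.54, −1.39 and −0.0094, the lines after PBS gave −0.11 for Jchain, and the lines after OVA 0.73, 0.75 and −0.098; 29 genes were called for OVA in BALB-RAG and 2712 for the lines after OVA. With the second stretch read 47 rows above its labels, the direction given beforehand and not used here, Igha was not tested. Ighm and Jchain gave 0.13 and −0.36 for OVA in BALB/c, 0.42 and 0.24 in BALB-RAG, and −0.30 and −0.60 for the difference. The lines after PBS gave −0.41 for Jchain, and after OVA 0.27 and 0.18.

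Same-numbered arrays did not meet the rule for pairing. Of their 24 correlations 23 were over 0.1 (lowest 0.0253), and 8 of 16 arrays correlated best with their own number. Replicates 1-2 and 3-4 nevertheless stood apart across the groups. Differently numbered arrays within 1-2 or within 3-4 correlated at 0.123 to 0.475 (24 pairs). Arrays of 1-2 against arrays of 3-4 gave −0.461 to −0.0156 (48 pairs). The main fit held no term for this split, and its cause was not tested. With a replicate block 1764, 41, 1152 and 609 genes were called for OVA in BALB/c, OVA in BALB-RAG, their difference and the lines after PBS, against 1128, 12, 618 and 284; no call of the 3 members changed. A term for replicates 1-2 against 3-4 gave 1820, 67, 1214 and 635. With BALB-RAG OVA replicate 2 also left out, chosen after seeing the data, these were 1829, 81, 1103 and 627; OVA against PBS in BALB-RAG was then called at −5.36, −3.35 and −5.12, and Igha between the lines after PBS at 2.68.

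Replicates 1 and 2 alone called none of Igha (3.76), Ighm (3.33) or Jchain (4.64) for OVA in BALB/c, none for the difference (5.90, 4.01 and 5.56), and neither Igha (−3.67) nor Jchain (−6.05) between the lines after OVA; Jchain turned to −0.49 after PBS, and 3 genes were called for OVA in BALB-RAG. Replicates 3 and 4 alone lost Ighm for OVA in BALB/c (2.87) and called 547, 5, 212, 52 and 693 genes in the 5 comparisons. With only the groups compared, 5 genes were called for OVA in BALB-RAG and 142 for the lines after PBS, Igha (2.68) among them. Without a filter Ighm (3.10, adjusted p = 0.0510) and Jchain (5.05, 0.0573) missed the threshold in BALB/c. OVA in BALB-RAG called 21 genes with a filter at log2 6, with arrays centred on their median (largest shift 0.109) or with probe sets averaged, and 26 after quantile normalisation; averaging also lost Ighm for the difference (3.37). All 25202 rows gave 2782, 43, 1460, 781 and 4836 calls. The exact permutation test, before adjustment, passed Igha (2.68) and Ighm (−1.41) between the lines after PBS and not Igha (−4.87) or Jchain (−6.96) after OVA.

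Igha minus Ighm was also taken with other Ighm probe sets. The PBS means of 1425324_x_at, 1425247_a_at and 1427756_x_at were under log2 4, so their differences that involve PBS check nothing. With 1425324_x_at it was −0.69, −5.48, 2.74 and −2.05 for OVA in BALB/c, OVA in BALB-RAG, the lines after PBS and the lines after OVA, and with 1425247_a_at −1.999, −6.11, 2.62 and −1.49. The last 3 of these were −5.40, 2.41 and −2.70 with 1427756_x_at, and −3.23, 1.99 and −2.80 with 1425385_a_at. The cause of these changes was not tested.

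Leaving out each array in turn gave, for Igha, Ighm and Jchain, 3.62 to 4.08, 2.69 to 3.78 and 4.47 to 5.97 for OVA in BALB/c, and −5.39 to −2.93, −3.47 to −1.75 and −5.30 to −2.37 in BALB-RAG. The difference of responses was 4.85 to 6.57 for Ighm and 7.42 to 10.35 for Jchain, and Igha between the lines after PBS 2.33 to 3.12. OVA in BALB-RAG called 6 to 42 genes and the lines after PBS 174 to 397. A floor at log2 4 and a robust fit changed no call of the 3 members. With 4 arrays per group and GCRMA's floor, levels under log2 4 carry no order and the smallest exact p is 0.0286.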
